A study of Homo sapiens with 6 samples.

Results

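The genes described here are 10 listed genes of the NRF2, glutathione and thioredoxin redox system, namely NFE2L2, KEAP1, HMOX1, NQO1, GCLC, GCLM, TXN, TXNRD1, SRXN1 and GPX4. They were matched by symbol and Ensembl identifier, and all 10 were found among the 57905 genes of the count table. RNA-SEQ was performed in NALM6 cells, an established human B-cell precursor acute lymphoblastic leukemia (B-ALL) line. The cell line was the same throughout. The 3 control libraries came from cells given the solvent DMSO, and the other 3 came from cells given 500 nM of THZ1, a covalent inhibitor of the transcription kinase CDK7, for 24 h. The methods speak of independent experiments in general but do not tie the libraries of a treatment to separate cultures, so the p-values measure the spread between these libraries, which may be technical.

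NRF2, the protein encoded by NFE2L2, is a transcription factor that is held in the cytoplasm and sent for degradation by KEAP1 until electrophiles or oxidants modify KEAP1. NRF2 then pairs with a small MAF protein and binds antioxidant response elements near genes for glutathione synthesis, thioredoxin reduction, quinone reduction and heme breakdown. Much of this control acts on the NRF2 protein, which RNA-SEQ does not measure.

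The libraries held 11015480 to 11164840 counts with DMSO and 7876402 to 8314306 with THZ1, and 16622 genes had enough counts to be tested. All 15 precursor B cell markers examined were detected, with a summed level of 5386 to 5749 CPM (counts scaled to a common library size) with DMSO and 2753 to 2893 CPM with THZ1. By the test given below, 11 of the 15 fell, 2 rose and 2 were called in neither direction. The 6 T cell markers summed to less than 1 CPM in every library. The 8 myeloid markers summed to 3.97 to 4.67 CPM with DMSO and 18.5 to 20.1 CPM with THZ1. Of these, 3 were at or under 3 counts in every library, including 2 at 0. Of the 4 myeloid markers with enough counts to be tested, 2 rose, 1 fell and 1 was called in neither direction. The 6 erythroid markers summed to 0.164 to 0.253 CPM and 3.61 to 3.81 CPM, with 4 at or under 3 counts in every library, including 2 at 0. The 7 stromal and epithelial markers summed to 127 to 143 CPM and 39.1 to 39.8 CPM. Of these, 5 were at or under 3 counts in every library, including 1 at 0, so the sum rests on few genes. Of the 2 stromal and epithelial markers with enough counts to be tested, 1 rose and 1 fell. The part of these shifts in the results below was not tested. In bulk RNA, fewer cells of a type and less RNA per cell cannot be told apart.

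Of the 10 members, 8 could be tested. With THZ1, the RNA of GCLC, GCLM, TXNRD1, TXN and NFE2L2 was lower and that of NQO1 higher, and KEAP1 and GPX4 were called in neither direction. A gene was called at an adjusted p below 0.05 in the quasi-likelihood test of edgeR, adjusted by Benjamini-Hochberg across every gene tested. The transcriptome moved widely: 43.5% of all genes tested were called higher and 41.1% lower, and 84.7% showed no overlap between the libraries of the treatments. Against that background, 1 member was called higher, 5 were called lower, and the treatments did not overlap for 6. With a log2 fold change of at least 1.5 also required, 24.6% of all genes were called higher and 12.9% lower, against no member higher and 1 member, GCLC, lower. The members' median log2 fold change was -0.75, beside 0.03 for all genes tested and -0.20 for the protein-coding genes tested. For the protein-coding genes with a mean of at least 5 CPM it was -0.26.

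**Figure D1:**
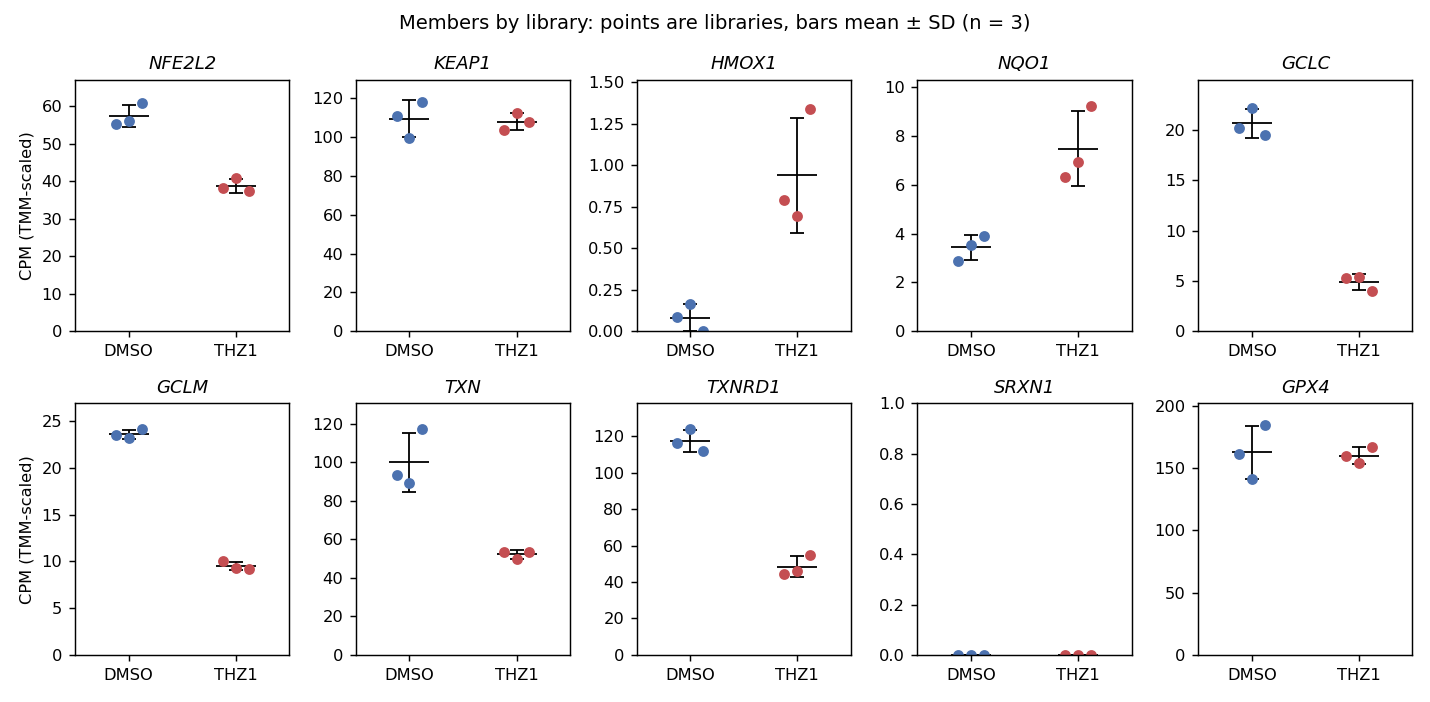
CPM scaled by TMM factors (y axis, linear and from 0, one scale per gene) for each member with DMSO and THZ1. Points are the 3 libraries of a treatment and bars the mean with the SD. The points of the treatments lie apart for NFE2L2, NQO1, GCLC, GCLM, TXN and TXNRD1, overlap for KEAP1 and GPX4, rest on few counts for HMOX1 and are at 0 for SRXN1.

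**Figure D2:**
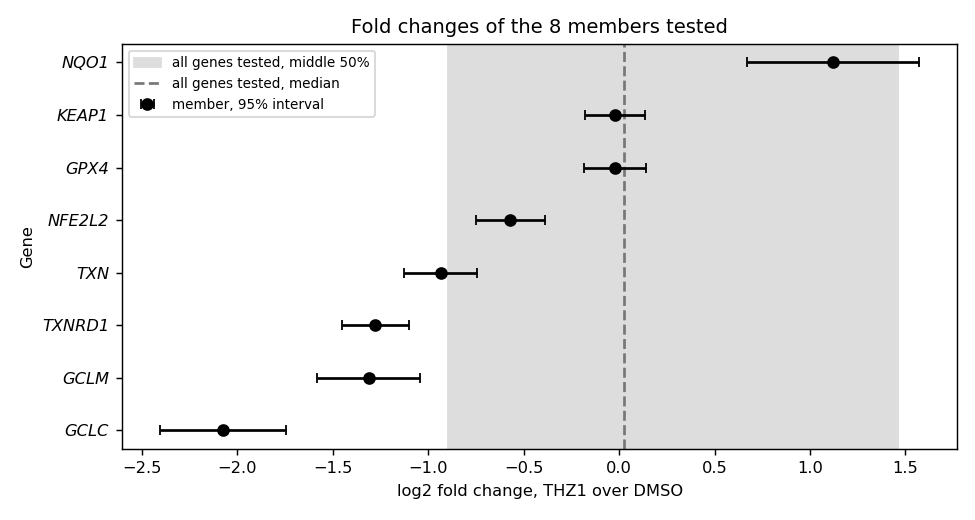
The log2 fold change of THZ1 over DMSO (x axis) for the 8 members tested, with 95% intervals from edgeR. The grey band holds the middle of all genes tested and the dashed line their median of 0.03. GCLC, GCLM and TXNRD1 lie wholly to the left of the band.

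NFE2L2 (ENSG00000116044, chr2:178083395-178257484 on GRCh37, minus strand) encodes NRF2 itself. Its level was 55.4, 56.1 and 60.9 CPM in the DMSO libraries and 38.1, 40.8 and 37.3 CPM in the THZ1 libraries. Every THZ1 library lay under every DMSO library. The fall was 1.48-fold, a log2 fold change of -0.57 (SE 0.09, 95% interval -0.75 to -0.39, adjusted p = 8.14e-07). HNRNPA3 lies on the opposite strand, shares 23.4% of the merged exon length of NFE2L2 and had 10471 to 10981 counts with DMSO and 2373 to 2644 with THZ1. The strand setting of the counting is not given in the sources used here, so reads in the shared part cannot be assigned to one of the 2 genes with certainty.

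KEAP1 (ENSG00000079999, chr19:10596801-10614234, minus strand), the adaptor that brings NRF2 to a CUL3 ubiquitin ligase, had 111, 99.6 and 118 CPM with DMSO. With THZ1 its level was 104, 112 and 108 CPM, within the range of the controls. The log2 fold change was -0.02 (SE 0.08, 95% interval -0.18 to 0.14, adjusted p = 0.798). Its call and its direction depended on the scaling: upper quartile factors gave 0.17 (adjusted p = 0.0396) and library sizes alone gave -0.27 (adjusted p = 0.0017). Limma on log2(FPKM + 1) gave -0.17 (adjusted p = 0.0319). Within a library, where no scaling enters, the log2 ratio of NFE2L2 to KEAP1 counts was -1.003, -0.83 and -0.96 with DMSO and -1.44, -1.46 and -1.53 with THZ1. The ratios did not overlap, and the difference of -0.55 gave an exact two-sided permutation p of 0.1, the smallest that 3 against 3 libraries allow (0.15 adjusted over the 3 ratios examined, which were chosen after the data were seen).

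All 14 listed partners and regulators of NRF2 were tested, of which 8 were called higher and 6 lower, with a median log2 fold change of 0.33. These are 57.1% and 42.9%, beside 36.3% higher and 47.6% lower among the protein-coding genes tested. MAFG, a small MAF protein that dimerizes with NRF2, went from 68.2 ± 2.59 CPM in controls to 692 ± 41.8 CPM under THZ1 (SD, n = 3, as for all means given with ±), a log2 fold change of 3.34 (SE 0.07, adjusted p = 5.43e-27). NFE2L3, a relative of NRF2, went from 2.68 ± 0.61 to 64.1 ± 3.19 CPM (log2 fold change 4.57). HNRNPA2B1, on the opposite strand, shares 28.1% of the NFE2L3 exon length and had 22582 to 23467 counts with DMSO and 2516 to 2715 with THZ1. BACH2, a repressor that competes at MAF-bound sites and a B cell regulator, fell from 192 ± 20.4 to 51.6 ± 2.74 CPM (log2 fold change -1.90). CUL3, the ligase scaffold that works with KEAP1, fell from 94.1 ± 4.62 to 39.8 ± 2.35 CPM (log2 fold change -1.24). BACH1, the repressor best known for HMOX1, was called higher at a log2 fold change of 0.27 (SE 0.12, adjusted p = 0.0414), although its libraries overlapped at 20.6 to 31.6 CPM with DMSO and 29.6 to 32.3 CPM with THZ1.

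NRF2 recognizes the antioxidant response element, whose core reads TGACNNNGC. This core was searched on both strands of the RefSeq promoter windows on GRCh38.p14, a different build from the GRCh37 used for the gene positions above; each window runs from 250 bases before to 50 after a transcription start, and 13.3% of all 35116 windows hold the core. Of the 10 members, 9 matched, with 14 windows, and 4 of these windows, in 3 genes, held the core. Over all 27305 genes with windows, 16.1% held it in any window. The 4 windows are shown because they hold the core. The letters run from 120 bases before the start to the start itself, on the strand of the gene. The core is in capitals (where it lies on the other strand its complement reads GCNNNGTCA).
GCLM (chr1:93909430-93909550, minus strand): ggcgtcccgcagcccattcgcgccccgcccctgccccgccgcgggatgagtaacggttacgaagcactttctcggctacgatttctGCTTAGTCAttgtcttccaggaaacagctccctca
TXNRD1, first start (chr12:104215659-104215779, plus strand): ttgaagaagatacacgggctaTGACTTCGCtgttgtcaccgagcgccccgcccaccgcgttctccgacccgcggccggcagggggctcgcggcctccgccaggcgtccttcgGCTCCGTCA
TXNRD1, second start (chr12:104286912-104287032, plus strand): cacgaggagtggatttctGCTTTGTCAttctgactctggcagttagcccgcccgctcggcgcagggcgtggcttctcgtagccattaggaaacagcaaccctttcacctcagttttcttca
KEAP1, one of its 2 starts (chr19:10502771-10502891, minus strand): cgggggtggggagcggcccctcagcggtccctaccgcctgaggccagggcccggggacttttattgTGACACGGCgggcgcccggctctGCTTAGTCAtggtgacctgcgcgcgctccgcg

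GCLM and KEAP1 carried the same 9 letters. They began 34 bases before the GCLM start and 31 bases before the KEAP1 start. Over all windows, 0.103% hold these letters on either strand. The letters were singled out because they occurred in both windows, and both windows already held the core. The share is therefore not the chance of such a match, which was not tested. The genes with a match included both called lower (GCLM and TXNRD1) and not called (KEAP1). The other KEAP1 window and the windows of NFE2L2, GCLC, TXN, NQO1, GPX4 and SRXN1 held no match, which says only that these letters are not in these windows.

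HMOX1 (ENSG00000100292, chr22:35776354-35790207, plus strand), the heme oxygenase that opens the heme ring, was barely detected. It had 1, 2 and 0 counts in the DMSO libraries and 6, 5 and 10 counts in the THZ1 libraries. Each THZ1 library had more counts than each DMSO library, but the gene had too few counts for the filter and was not tested. Summed over libraries and scaled, 3 counts against 21 gave a ratio of 11.3 with a 95% exact interval of 3.39 to 59.4, which covers counting error only.

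NQO1 (ENSG00000181019, chr16:69740899-69760571, minus strand), a quinone reductase and a widely used NRF2 reporter gene, was the 1 member called higher. Its level was 2.89, 3.52 and 3.88 CPM with DMSO and 6.31, 6.92 and 9.22 CPM with THZ1, from 35 to 46 and 48 to 69 counts. The libraries of the treatments did not overlap. The rise was 2.18-fold, a log2 fold change of 1.12 (SE 0.22, 95% interval 0.67 to 1.57, adjusted p = 2.69e-05). In the deposited FPKM values the libraries overlapped, at 3.65, 4.11 and 4.74 with DMSO and 4.15, 4.59 and 6.88 with THZ1, and limma on log2(FPKM + 1) gave 0.25 (adjusted p = 0.277), which ends the call. The deposited values of the libraries of a treatment were nearly alike in distribution, and the methods name no step for this: once sorted, their log2 values differed by a median of 0.0015 to 0.0017 within a treatment and 0.087 to 0.0902 between treatments. The part of this likeness in the FPKM levels and limma p-values given for NQO1, KEAP1 and GPX4 was not tested. An opposite-strand non-coding gene, ENSG00000261602, shares 19.4% of the NQO1 exon length and had 5 to 6 counts with DMSO and 10 to 14 with THZ1.

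Among 33 other NRF2 target genes, 22 were tested, of which 3 were called higher and 13 lower. These are 13.6% and 59.1%, beside 36.3% and 47.6% of the protein-coding genes tested. FTH1 and FTL, the ferritin chains that store iron, were higher. FTH1 went from 375 ± 52.9 to 1243 ± 53.1 CPM (log2 fold change 1.73, SE 0.08) and FTL from 435 ± 51.7 to 1026 ± 36.4 CPM (log2 fold change 1.24, SE 0.07). Both have processed pseudogenes that could take some of their reads, and BEST1, on the opposite strand, shares 63.2% of the FTH1 exon length, with 3254 to 4237 and 6954 to 7480 counts. AKR1A1, an aldehyde reductase, fell from 142 ± 19.5 to 42.2 ± 2.69 CPM (log2 fold change -1.75), and BLVRB, a biliverdin and flavin reductase, fell from 26.3 ± 3.72 to 8.32 ± 1.48 CPM (log2 fold change -1.66). The list's median was -0.89.

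GCLC (ENSG00000001084, chr6:53362139-53481768, minus strand) encodes the catalytic subunit of glutamate-cysteine ligase, the rate-limiting enzyme of glutathione synthesis, and was the member that fell most among the 8 tested. Its level was 20.2, 22.2 and 19.5 CPM with DMSO and 5.26, 5.399 and 4.01 CPM with THZ1, with every THZ1 library far under the controls. The fall was 4.21-fold, a log2 fold change of -2.07 (SE 0.16, 95% interval -2.41 to -1.74, adjusted p = 3.35e-13). Of the protein-coding genes tested, 5.39% had a lower log2 fold change.

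GCLM (ENSG00000023909, chr1:94350755-94375012, minus strand) encodes the modifier subunit of the same ligase. It had 23.5, 23.2 and 24.1 CPM with DMSO and 9.99, 9.27 and 9.22 CPM with THZ1, again without overlap. The fall was 2.48-fold, a log2 fold change of -1.31 (SE 0.13, 95% interval -1.58 to -1.04, adjusted p = 1.24e-10). The log2 ratio of GCLC to GCLM counts within a library was -0.22, -0.06 and -0.31 with DMSO and -0.93, -0.78 and -1.20 with THZ1. The ratios did not overlap and differed by -0.77 (exact two-sided permutation p = 0.1, 0.15 adjusted over the 3 ratios).

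Of 37 other genes of glutathione synthesis and use, 32 were tested, of which 22 were called lower and 5 higher, with a median log2 fold change of -0.84. These are 68.8% lower and 15.6% higher, beside 47.6% and 36.3% of the protein-coding genes tested. GSS, which completes glutathione, fell from 56.8 ± 4.30 to 30.6 ± 2.39 CPM (log2 fold change -0.89), and GSR, which reduces oxidized glutathione, from 86.6 ± 2.07 to 34.7 ± 2.20 CPM (log2 fold change -1.32). GGCT, which acts on gamma-glutamyl peptides, fell from 70.6 ± 2.06 to 13.0 ± 1.38 CPM (log2 fold change -2.44), and GLRX, a glutaredoxin, from 111 ± 10.8 to 27.4 ± 1.53 CPM (log2 fold change -2.02).

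Of the 2 chains of the cystine importer, 1 was called. SLC3A2, the heavy chain shared with other amino acid transporters, rose from 219 ± 18.7 to 612 ± 59.0 CPM (log2 fold change 1.48, SE 0.08). SLC7A11, the cystine-specific chain, had 7.26 to 10.4 CPM with DMSO and 6.28 to 8.55 CPM with THZ1, which overlapped (log2 fold change -0.27, SE 0.19, adjusted p = 0.18). CHAC1, which degrades glutathione, rose from 12.4 ± 1.88 to 74.1 ± 12.7 CPM (log2 fold change 2.59). GSTT1, a glutathione transferase, had 3, 3 and 4 counts with DMSO and 200, 216 and 195 with THZ1, a scaled ratio of 99.0 (95% exact interval 53.5 to 207, counting error only).

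**Figure D3:**
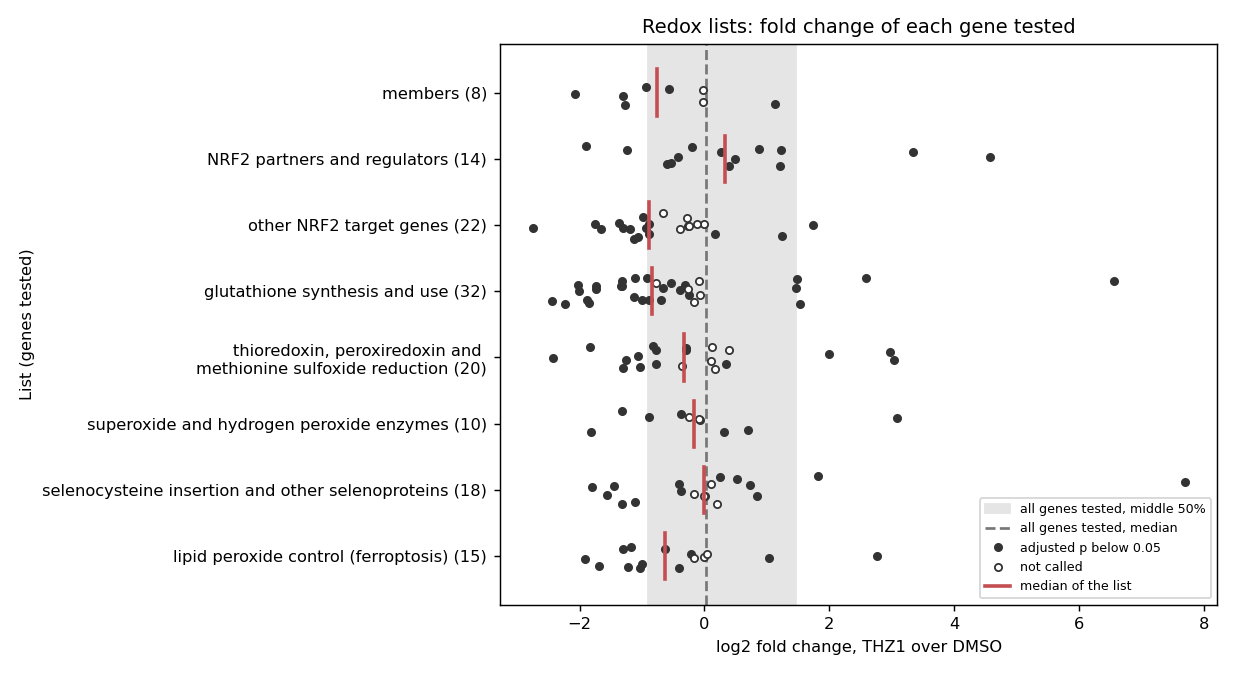
The log2 fold change of THZ1 over DMSO (x axis) for each tested gene of the members and of the 7 redox lists, with the number of genes tested in brackets. Filled points passed an adjusted p of 0.05, open points did not, red bars are list medians, and grey shows the middle of all genes tested. The glutathione list has its median at -0.84 and the NRF2 partner list at 0.33.

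TXN (ENSG00000136810, chr9:113006090-113018787, minus strand) encodes thioredoxin, the small dithiol protein that reduces peroxiredoxins and ribonucleotide reductase. Its level was 93.3, 88.9 and 117 CPM with DMSO and 53.5, 49.6 and 53.5 CPM with THZ1. No THZ1 library reached the lowest control. The fall was 1.91-fold, a log2 fold change of -0.94 (SE 0.09, 95% interval -1.13 to -0.75, adjusted p = 8.97e-11). Of 7 TXN pseudogenes examined, TXNP6 alone had counts, 33 over the 6 libraries against 4769 for TXN.

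TXNRD1 (ENSG00000198431, chr12:104609557-104744085, plus strand), the cytosolic selenoenzyme that reduces thioredoxin with NADPH, had 116, 124 and 112 CPM with DMSO. With THZ1 it had 44.5, 46.0 and 54.95 CPM, all under the controls. The fall was 2.42-fold, a log2 fold change of -1.28 (SE 0.09, 95% interval -1.45 to -1.10, adjusted p = 7.59e-15). The log2 ratio of TXNRD1 to TXN counts was 0.32, 0.48 and -0.07 with DMSO and -0.27, -0.11 and 0.04 with THZ1. These ratios overlapped between treatments (difference -0.36, exact two-sided permutation p = 0.2).

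SRXN1 (ENSG00000271303, chr20:627259-633844, minus strand), the sulfiredoxin that rescues overoxidized peroxiredoxins, had 0 counts in all 6 libraries. A count of 0 allows up to 3 counts, which is 0.246 to 0.253 CPM with DMSO and 0.394 to 0.415 CPM with THZ1. A second protein-coding annotation on the same strand, ENSG00000270299, covers 90.7% of its exon length and also had 0 counts in all 6. How the counter treated reads that fall in both genes is not given in the sources used here, so the limit holds for counts assigned to SRXN1 and not for its RNA.

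Of 23 other genes of thioredoxin, peroxiredoxin and methionine sulfoxide reduction, 22 were matched and 20 tested, of which 4 were called higher and 11 lower (median log2 fold change -0.33). These are 20% and 55%, beside 36.3% and 47.6% of the protein-coding genes tested. PRDX1, an abundant cytosolic peroxiredoxin, fell from 1295 ± 115 to 522 ± 5.199 CPM (log2 fold change -1.31). Opposite-strand MMACHC shares 29.8% of its exon length and had 217 to 309 counts a library. NXN, nucleoredoxin, fell from 41.6 ± 2.08 to 7.78 ± 1.58 CPM (log2 fold change -2.42), and PRDX4, the peroxiredoxin of the endoplasmic reticulum, from 46.4 ± 6.75 to 13.1 ± 1.41 CPM (log2 fold change -1.83). Of the 3 sestrins, a family of stress-inducible proteins, 2 were called higher. SESN1 rose from 13.1 ± 1.09 to 108 ± 0.95 CPM (log2 fold change 3.04) and SESN2 from 31.8 ± 0.76 to 127 ± 10.4 CPM (log2 fold change 2.001). SESN3, named to complete the family after its values were seen, had 9.51 ± 1.52 and 7.43 ± 2.06 CPM, which overlapped (log2 fold change -0.36, adjusted p = 0.0798). TXNIP, the thioredoxin inhibitor, was not analysed here.

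GPX4 (ENSG00000167468, chr19:1103981-1106790, plus strand), the selenoenzyme that reduces lipid hydroperoxides with glutathione, had 161, 141 and 185 CPM with DMSO. With THZ1 its level was 159, 154 and 167 CPM, inside the control range. The log2 fold change was -0.02 (SE 0.08, 95% interval -0.18 to 0.14, adjusted p = 0.802). As for KEAP1, the call and the direction depended on the scaling: upper quartile factors gave 0.17 (adjusted p = 0.0464), library sizes alone gave -0.27 (adjusted p = 0.00198) and limma on log2(FPKM + 1) gave -0.30 (adjusted p = 0.00494).

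Among 20 other genes of lipid peroxide control, 19 were matched and 15 tested, of which 2 were called higher and 10 lower (median log2 fold change -0.64). These are 13.3% and 66.7%, beside 36.3% and 47.6% of the protein-coding genes tested. ALOX5, a leukotriene-forming lipoxygenase, fell from 73.2 ± 5.29 to 19.4 ± 1.31 CPM (log2 fold change -1.92), and VKORC1L1, a vitamin K reductase, from 87.0 ± 6.23 to 27.0 ± 2.92 CPM (log2 fold change -1.69). ALOX12, another lipoxygenase, rose from 6.83 ± 0.48 to 46.3 ± 4.93 CPM (log2 fold change 2.76), and PCBP1, an iron chaperone and RNA-binding protein, from 409 ± 23.9 to 836 ± 5.43 CPM (log2 fold change 1.03). PCBP1-AS1, on the opposite strand, shares 73.2% of the PCBP1 exon length and had 4076 to 4478 counts with DMSO and 5001 to 5211 with THZ1, near the 4791 to 5175 and 6023 to 6333 of PCBP1 itself. ALOX12-AS1 shares 18.5% of the ALOX12 exon length, with 44 to 51 and 90 to 131 counts. Without a stated strand setting, the reads of these pairs cannot be told apart.

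The list of selenocysteine insertion and other selenoproteins had 18 of 20 genes tested, with 6 called higher and 7 lower and a median of -0.0018. These are 33.3% and 38.9%, beside 36.3% and 47.6% of the protein-coding genes tested. SEPHS2, which makes the selenium donor, rose from 93.5 ± 9.37 to 330 ± 4.88 CPM (log2 fold change 1.82), and TRNAU1AP, a factor of the selenocysteine transfer RNA, from 29.6 ± 2.89 to 52.9 ± 2.56 CPM (log2 fold change 0.84). SELENOI fell from 141 ± 14.9 to 40.4 ± 3.60 CPM (log2 fold change -1.80) and SELENOF from 150 ± 11.99 to 50.6 ± 1.62 CPM (log2 fold change -1.56).

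Of 14 superoxide and hydrogen peroxide enzymes, 10 were tested, with 3 called higher and 4 lower. These are 30% and 40%, beside 36.3% and 47.6% of the protein-coding genes tested. The cytosolic superoxide dismutase SOD1 fell from 194 ± 21.6 to 77.8 ± 2.34 CPM (log2 fold change -1.32). The mitochondrial SOD2 rose from 207 ± 3.15 to 255 ± 1.07 CPM (log2 fold change 0.31) and catalase, CAT, from 115 ± 3.45 to 187 ± 9.23 CPM (log2 fold change 0.70). The change of SOD2 was near in size to the shifts between scalings. Their median was -0.25 with library sizes alone, -0.26 with limma on log2(FPKM + 1) and 0.19 with upper quartile factors. The value of SOD2 under those settings is not given here. DUOX1, a hydrogen peroxide-forming oxidase, rose from 1.87 ± 0.94 to 16.1 ± 2.47 CPM (log2 fold change 3.09), and CYBA, a subunit of NADPH oxidases, fell from 241 ± 33.7 to 130 ± 2.60 CPM (log2 fold change -0.89).

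Over the 7 lists together, with members left out and each gene counted once, 131 genes were tested, of which 31 were called higher, 73 lower and 27 neither. These are 23.7% higher and 55.7% lower, beside 36.3% and 47.6% of the protein-coding genes tested. Of the protein-coding genes with a mean of at least 5 CPM, 34.1% were higher and 51.1% lower. The median log2 fold change was -0.39 for the lists, -0.20 for the protein-coding genes tested and -0.26 for those with at least 5 CPM.

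Levels of different genes were compared per kilobase of merged exons. With DMSO, TXN (98.9 ± 15.2 CPM per kb) and GPX4 (88.3 ± 11.7 CPM per kb) were highest and overlapped. KEAP1 (30.7 ± 2.64), TXNRD1 (17.5 ± 0.88), GCLM (4.35 ± 0.09), NFE2L2 (3.84 ± 0.20), GCLC (2.39 ± 0.16) and NQO1 (1.16 ± 0.17 CPM per kb) followed in that order without overlap between neighbours, and HMOX1 was at 0.04 ± 0.04 CPM per kb. With THZ1, GPX4 (86.9 ± 3.64 CPM per kb) stood above TXN (51.7 ± 2.25) without overlap, and KEAP1 (30.2 ± 1.23) and TXNRD1 (7.22 ± 0.85 CPM per kb) came next. NFE2L2 (2.59 ± 0.12) and NQO1 (2.52 ± 0.52 CPM per kb) overlapped, GCLM was at 1.75 ± 0.08, and GCLC (0.57 ± 0.09) overlapped with HMOX1 (0.41 ± 0.15 CPM per kb).

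NQO1 thus stood below GCLC and GCLM per kilobase in every DMSO library and above both in every THZ1 library. The place of NFE2L2 depended on the length used, since its merged exons span 14975 bases and its MANE Select transcript, the reference transcript of the gene, 2446. Per kilobase of the MANE transcript NFE2L2 was at 23.5 ± 1.23 CPM with DMSO and 15.8 ± 0.76 CPM with THZ1. In the deposited FPKM values, where 7 of the 10 members had a row in the table used here, it was at 28.3 ± 1.43 and 17.2 ± 0.82. Other places changed too per kilobase of the MANE transcript. With DMSO, GPX4 (191 ± 25.4) stood above TXN (135 ± 20.8) and GCLC (5.45 ± 0.37) above GCLM (4.83 ± 0.10), both without overlap. With THZ1, NFE2L2 stood above TXNRD1 (12.6 ± 1.47) without overlap. GCLC (1.29 ± 0.20) and HMOX1 (0.60 ± 0.22) no longer overlapped with THZ1.

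**Figure D4:**
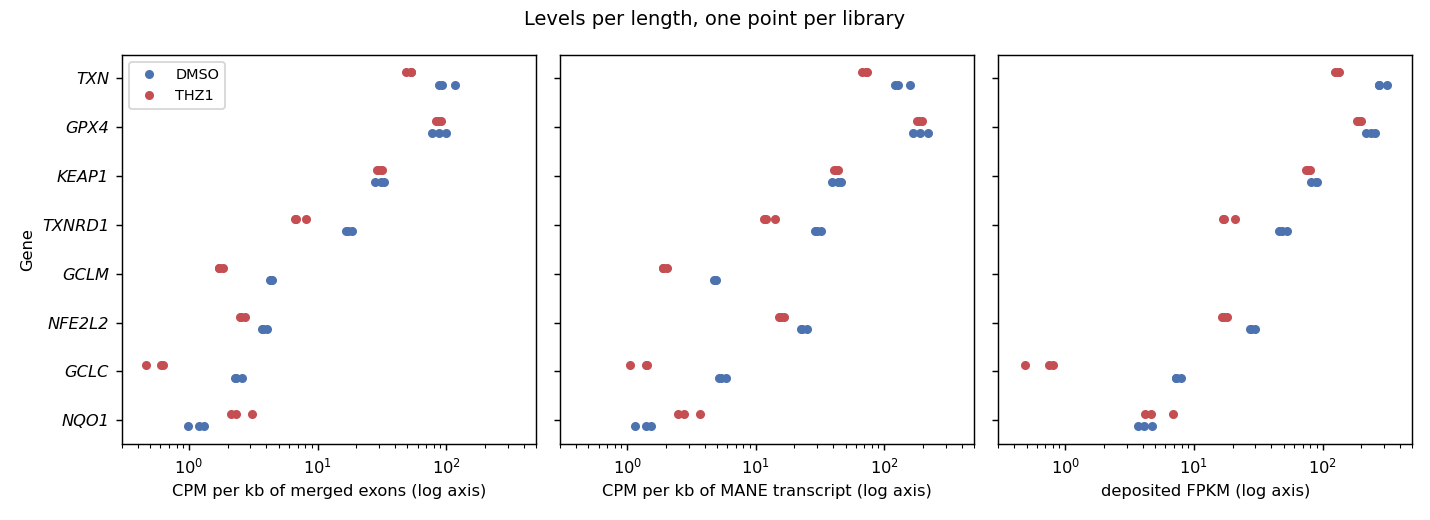
Levels per length (x axis, log scale) of the 8 members tested, one point per library, as CPM per kb of merged exons, as CPM per kb of the MANE transcript and as deposited FPKM, which were used for 7 members (GCLM has no point). NFE2L2 moves from about the level of GCLM with merged exons to well above it with the MANE transcript, and NQO1 passes GCLC between DMSO and THZ1 in all 3 panels.

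**Figure D5:**
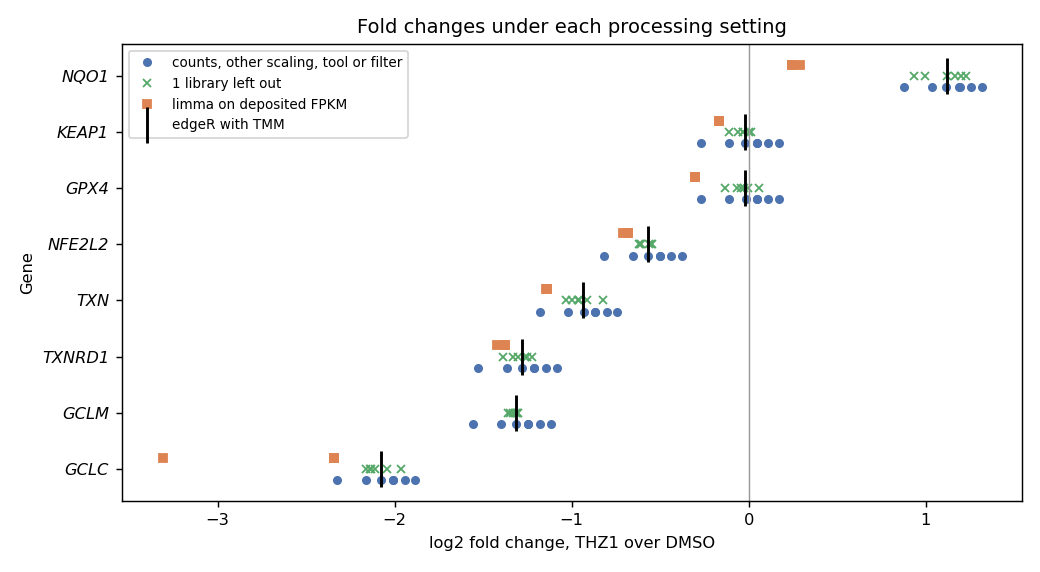
The log2 fold change of each tested member (x axis) under the main setting and the 16 alternatives: other scalings, tools or filters on counts, 1 library left out, and limma on deposited FPKM. GCLC, GCLM, TXNRD1, TXN and NFE2L2 stay to the left of 0 in all settings that gave a value, KEAP1 and GPX4 fall on both sides, and NQO1 stays to the right.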

How the data were processed

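RNA-SEQ of NALM6 cells was analysed in 6 libraries, grouped by the treatment in the labels. The authors deposited raw counts for each gene. Reads had been filtered, aligned to GRCh37 by STAR and counted by htseq-count. They also deposited values on a log2 scale, calculated as FPKM with RSEM and read here as log2(FPKM + 1), together with their own p-values, fold changes and FDR, which were not used. Sorted log2 values were nearly the same in libraries of a treatment, and the methods name no step for this. The annotation, the strand setting and the counter's handling of overlapping genes are not given in the sources used here. No spike-in is named, so all values are shares of a library. The design assumed linear FPKM, so the log2 values were first converted to linear FPKM.

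Counts were filtered with filterByExpr (minimum count 10, minimum total 15), scaled by TMM and tested two-sided with edgeR 4.0.16. Each standard error is the size of the log2 fold change over the square root of F. Alternatives used DESeq2 1.42.0 and limma 3.58.1. The edgeR, DESeq2 and limma fits were tested on simulated counts. In these, few genes were changed, with as many raised as lowered. They could therefore not show how the scaling behaves where most genes are called, as here. Gene positions came from GENCODE lifted to GRCh37, and promoter windows from RefSeq. A floor of 3 counts in a library corresponds to 0.246 to 0.415 CPM, and intervals on counts cover counting error only.

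The members and lists were chosen with earlier results of these data known. Named genes were the 10 members, a fixed set of 12 redox genes, and, per list, the 2 highest and 2 lowest log2 fold changes among called genes that averaged 5 CPM or more and did not overlap between DMSO and THZ1. TXNIP and NCOA4 were not analysed here.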

Additional observations from a re-analysis of the deposited data

How the results depend on the processing

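The falls of GCLC, GCLM, TXN, TXNRD1 and NFE2L2 kept their direction and their call in every alternative that gave a value. GCLC ranged from -3.31 to -1.88 (adjusted p at most 2.62e-05) and NFE2L2 from -0.82 to -0.38. From the main setting, log2 fold changes shifted by a median of 0.19 with upper quartile factors and -0.25 with library sizes alone. The median shift was 0.13 when every library had to hold 10 counts. With limma on FPKM it was -0.26 and -0.31, with a pseudocount of 1 and 0.1. Members called higher were 1 as reported, 3 with upper quartile factors (KEAP1 and GPX4 added), 2 with no filter (HMOX1 added) and 0 with each of the 3 limma settings, where 0 of 7 members were higher at an unadjusted p under 0.05. Members called lower were 5 as reported and 7 with library sizes alone (KEAP1 and GPX4 added). With each of the 3 limma settings they were 6, with KEAP1 and GPX4 added and no value for GCLM. Members past a log2 fold change of 1.5 were 1 as reported, 3 with library sizes alone (GCLM and TXNRD1 added) and 2 with no filter (HMOX1 added). KEAP1 changed sign to 0.0456 with RLE factors and with DESeq2, 0.17 with upper quartile factors and 0.11 with the filter of 10 counts per library, and GPX4 to 0.0454, 0.0453, 0.17 and 0.11. With each library left out in turn, KEAP1 ranged from -0.11 to 0.0161, GPX4 from -0.13 to 0.0599 and NQO1 from 0.93 to 1.23, and neither KEAP1 nor GPX4 was called. Leaving out a library kept 1 member higher, 5 lower and 1 past 1.5, with 27 to 31 list genes higher and 70 to 75 lower. The list counts, 31 higher and 73 lower as reported, were 40 and 62 with upper quartile factors, 24 and 91 with library sizes alone, 34 and 68 with RLE factors, 32 and 66 with DESeq2, 34 and 57 with the filter of 10 counts per library, 28 and 82 with no filter, and 23 and 79 with limma. The causes were not tested. The order of the 7 members with deposited FPKM was that of merged exons. With the MANE transcript, an alternative chosen after seeing the data, 5 of 7 kept their place in each treatment.

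No pairing by replicate number was seen: same-numbered libraries deviated with correlations of -0.004, 0.001 and 0.021, and not every library correlated best with its own number. Correlations this near to 0 cannot tell whether the cultures were paired. With a replicate block, 1 member was called higher and 5 lower, 1 passed 1.5, and 30 list genes were higher and 72 lower, so that it changed no member's call. NQO1 rests on 35 to 69 counts a library and HMOX1 on at most 10, which limits their precision.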

Other observations

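The members differed in the length of the gene on the genome. GCLC, TXNRD1 and NFE2L2 each span over 100 kb, and the 1779 protein-coding genes of that span with a mean of at least 5 CPM had a median log2 fold change of -0.64. KEAP1, NQO1 and TXN span 5 to 20 kb, where the median of 2858 genes was 0.16, GCLM spans 20 to 50 kb, where the median of 2872 genes was -0.38, and GPX4 spans under 5 kb, where the median of 827 genes was 0.77. The part of gene length in the members' changes was not tested.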
